A study of Mus musculus with 14 samples.

Results

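The miR-378 family was measured as 5 mature microRNA lines, mmu-miR-378a-3p, mmu-miR-378a-5p, mmu-miR-378b, mmu-miR-378c and mmu-miR-378d (written below without the mouse prefix), chosen by name from the 1250 lines of a small RNA count table. The 14 mouse libraries formed 4 groups: exosomes of IL4-stimulated macrophages (n = 4), exosomes of control macrophages (n = 4), lysates of IL4-stimulated macrophages (n = 3) and lysates of control macrophages (n = 3). IL4, interleukin 4, is the cytokine that drives the alternative activation of macrophages, and exosomes are small vesicles that cells release into their medium. The labels gave bone marrow as the source and excised bone as the tissue of all groups, called the controls wild type, and named no dose, duration or age. Nothing in them says that the replicates stem from different animals or cultures, so each p-value weighs a difference against the spread of these libraries alone, and that spread may be technical.

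A microRNA is cut from a hairpin precursor, and its seed, the stretch near the 5′ end, pairs with target mRNAs and sets which of them are repressed. Both arms of the miR-378a hairpin give a mature miRNA, the 3p arm usually in excess of the 5p arm. In mice, miR-378a is known as a regulator of lipid and energy metabolism that is made together with PGC-1β, the mitochondrial coactivator encoded by its host gene Ppargc1b, and it has been described among the microRNAs that IL4 induces in mouse macrophages. In the GENCODE M21 annotation, Mir378a lay in an intron of Ppargc1b on the same strand. Mir378b lay in an intron of Msi2 and Mir378c in an intron of Samd4, both on the strand opposite to the host gene, and Mir378d lay between genes, 158036 bases from Atp23, the nearest coding gene.

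The mature sequences of 3 of the 5 members were matched in RefSeq (build GRCm38.p6). They are shown because these 3 lines differ by so little that reads of 1 could be counted on another. The sequences of miR-378a-3p and miR-378a-5p were not among those matched, so neither was compared with the others. Capitals mark the seed, bases 2 to 8.
miR-378b: cUGGACUUggagucagaaga
miR-378c: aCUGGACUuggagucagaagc
miR-378d: aCUGGCCUuggagucagaaggu
They lie at chr11:88352839-88352858 on the plus strand (miR-378b, 20 bases), chr14:46954905-46954925 on the minus strand (miR-378c, 21 bases) and chr10:126710355-126710376 on the minus strand (miR-378d, 22 bases). Counted from 1 at the 5′ end of the first-named sequence, miR-378b and miR-378c overlapped with a shift of 1 base and matched at 19 of 20 positions, with A20C as the difference. That shift alone gave them different seeds, UGGACUU in miR-378b and CUGGACU in miR-378c. miR-378d had the same start as miR-378c and differed from it at A6C, inside the seed, and at C21G at the 3′ end, which left a shared run of 14 bases. Set against miR-378b, miR-378d carried A5C and A20G.

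Depth differed widely between the compartments. Total miRNA counts were 50032 to 411671 in IL4 exosomes and 28417 to 199025 in control exosomes, against 3941480 to 5852831 in IL4 lysates and 5511688 to 6792079 in control lysates. In CPM, a line's counts scaled to the library's total, 1 read was therefore worth 2.43 to 19.99 CPM in IL4 exosomes and 5.02 to 35.2 CPM in control exosomes. The titles gave a date for each library, shared by 1 IL4 and 1 control library. In the exosome libraries of 25 January (replicate 1), the miR-203 lines took 19.4% of IL4 counts and 9.28% of control counts. They took 0.0326 to 3.53% in the other IL4 and 0.128 to 2.47% in the other control exosome libraries. The epithelial marker miR-203-3p itself reached at most 100436 CPM in an IL4 and 47542 CPM in a control exosome library. Other miR-203 lines thus held much of these shares. The 5 epithelial markers summed to 0.0355 to 10.5% of IL4 exosome and 0.0809 to 4.89% of control exosome counts. In lysates they summed to 0.0141 to 0.0177% with IL4 and 0.0195 to 0.0240% in controls. Exosome means of miR-203-3p, miR-205-5p and miR-200c-3p were higher with IL4, and those of miR-200a-3p and miR-200b-3p were lower. The 6 myeloid markers together held 21.6 to 31.8% of IL4 exosome and 22.05 to 29.2% of control exosome counts, and 34.4 to 44.8% of IL4 lysate and 28.6 to 34.9% of control lysate counts. Most of this was miR-21a-5p, with means of 384594 CPM in IL4 lysates and 287365 CPM in control lysates. In lysates miR-223-3p averaged 8334 CPM with IL4 and 22230 CPM in controls, and miR-146a-5p 453 CPM and 2430 CPM. The lysate means of miR-142a-3p and miR-142a-5p were also lower with IL4, and that of miR-511-3p was higher. The sum thus mainly followed miR-21a-5p. The 7 markers of muscle, a tissue rich in miR-378, summed to 0.0352 to 0.0700% of IL4 exosome, 0.0467 to 0.336% of control exosome, 0.0004 to 0.0014% of IL4 lysate and 0.0002 to 0.0007% of control lysate counts. In exosomes most of this was miR-1a-3p, with means of 443 CPM with IL4 and 1293 CPM in controls, where it reached at most 3281 CPM. Exosome means of miR-206-3p, miR-208a-3p and miR-208b-3p were higher with IL4, and those of miR-1a-3p, miR-133a-3p, miR-133b-3p and miR-499-5p were lower. Of the muscle markers, miR-206-3p and miR-208a-3p were at 0 in all control libraries, and miR-133b-3p and miR-208a-3p in all IL4 lysates. The 4 markers of brown fat, which also holds much miR-378, summed to 0.0091 to 0.0380% of IL4 exosome, 0.0241 to 0.0387% of control exosome, 0.0039 to 0.0076% of IL4 lysate and 0.0037 to 0.0082% of control lysate counts. The 3 erythroid markers summed to 1.44 to 2.07% of IL4 exosome and 1.98 to 3.43% of control exosome counts, but only 0.000954 to 0.00157% of IL4 lysate and 0.000957 to 0.00299% of control lysate counts. The part of such cells in the results was not tested. Fewer cells of a type and less RNA per cell cannot be told apart in such bulk samples.

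miR-378a-3p, the main arm, made up nearly the whole family. It held 94.7% of the pooled family counts in IL4 exosomes, 91.9% in control exosomes, 94.0% in IL4 lysates and 91.6% in control lysates. By count it ranked 33rd to 63rd among the lines of an IL4 exosome library and 67th to 70th in a control exosome library, against 23rd to 35th in IL4 lysates and 41st to 47th in control lysates. miR-378c supplied 2.90% of the family in IL4 exosomes, 6.29% in control exosomes, 3.30% in IL4 lysates and 5.61% in control lysates. The passenger arm miR-378a-5p supplied 2.17%, 1.49%, 2.37% and 2.32% in the same groups. miR-378b stayed at or under 0.356% and miR-378d at or under 0.138% of the family in every group. In exosomes these pooled shares weigh replicate 3 most, with 2120 family counts with IL4 and 357 in control. Other exosome libraries had 92 to 395 family counts with IL4 and 54 to 108 in controls.

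The family as a whole took 0.401 ± 0.156% of IL4 exosome counts (SD, n = 4) and 0.200 ± 0.0229% of control exosome counts (n = 4). In lysates it took 0.535 ± 0.145% with IL4 and 0.218 ± 0.0320% in controls (SD, n = 3 each). By library, the share was 0.184%, 0.390%, 0.515% and 0.515% in IL4 exosomes, against 0.190%, 0.199%, 0.179% and 0.232% in control exosomes. It was 0.375%, 0.574% and 0.657% in IL4 lysates, against 0.250%, 0.186% and 0.218% in control lysates. All IL4 libraries but 1, the exosome library of 25 January, lay above every control library of their compartment.

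In lysates, both arms of miR-378a were about 3 times as high in the stimulated macrophages as in the controls on the TMM scale. With library totals the log2 change was smaller, 1.34 for each arm. miR-378a-3p reached 3467, 5414 and 6234 CPM in IL4 lysates, against 2276, 1726 and 1987 CPM in control lysates (replicates 1 to 3). The groups did not overlap, and the lowest IL4 library was the first, of 23 January. On the TMM scale it rose 2.99-fold (log2 fold change 1.58, SE 0.28; edgeR quasi-likelihood test, Benjamini-Hochberg adjusted p = 0.0199). miR-378a-5p measured 82.7, 162 and 144 CPM in IL4 lysates, against 71.3, 35.5 and 46.4 CPM in control lysates. Again the groups stood apart, with the closest pair on 23 January. The within-date ratios of miR-378a-5p were uneven, 1.16 on 23 January, 4.55 on 14 March and 3.09 on 21 March. It rose 3.03-fold (log2 1.60, SE 0.35; edgeR adjusted p = 0.0316). With 2 of the 5 members called higher, the background was 5.87%, since 26 of 443 lines tested were higher and 6 (1.35%) lower. By p, miR-378a-3p was the 11th and miR-378a-5p the 27th line of the table.

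The 3 other members had smaller fitted changes in lysates and did not pass the test. miR-378c measured 181, 157 and 177 CPM in IL4 lysates, against 141, 92.0 and 136 CPM in control lysates. All IL4 values exceeded all control values, but the gap was narrow, 157 against 141 CPM, and the log2 fold change was 0.69 (SE 0.22; edgeR adjusted p = 0.147). miR-378d, read from 12 to 23 counts in an IL4 library and 11 to 15 in a control library, measured 3.93, 3.04 and 4.09 CPM in IL4 lysates, against 2.09, 2.21 and 1.996 CPM in control lysates. Its groups did not overlap either, and its log2 fold change was 1.01 (SE 0.45; edgeR adjusted p = 0.374). miR-378b measured 12.5, 8.88 and 12.7 CPM in IL4 lysates, against 10.4, 5.74 and 7.26 CPM in control lysates, which overlap (log2 0.77, SE 0.31; edgeR adjusted p = 0.277). The groups thus stood apart, with IL4 higher, for 4 of the 5 members, where 8.8% of all tested lines did so in that direction. All 5 fitted changes were above 0 under each scaling tried.

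With the libraries paired by date, as a replicate block, 50 lines (11.3%) were called in lysates, against 32 (7.22%) without it. Under the block, miR-378c was called as well (log2 0.70; edgeR adjusted p = 0.0198), as it was with DESeq2 (log2 0.67; adjusted p = 0.0306), which called 9.48% of lines. With library totals, where 3.16% were called, miR-378a-3p was called and miR-378a-5p was not (log2 1.34; adjusted p = 0.105). In a fit of all 14 libraries, where 1.18% were called, neither arm was (log2 1.54 and 1.58, adjusted p = 0.0550 and 0.175). With 1 library left out, both arms kept log2 changes of 1.26 to 1.85 (miR-378a-3p) and 1.39 to 1.89 (miR-378a-5p), but the calls did not all hold. That of miR-378a-3p ended without control replicate 2 (adjusted p = 0.193) or 3 (0.0805), or without IL4 replicate 2 (0.106) or 3 (0.0701), and that of miR-378a-5p ended without the same 4 libraries (adjusted p between 0.145 and 0.254).

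**Figure D1:**
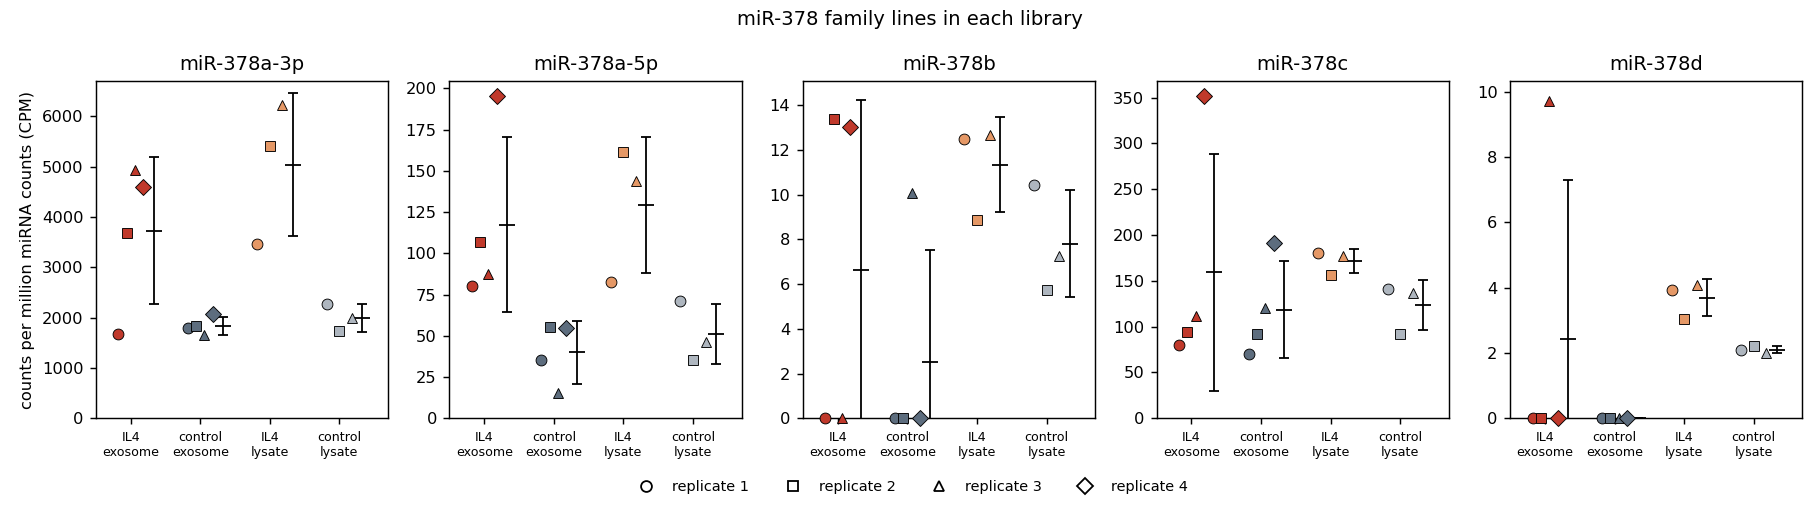
CPM, a line's counts scaled to the library's miRNA total (vertical axes, starting at 0), of the 5 family lines in every library, by group; each point is a library, its shape gives the replicate, and the bars are the mean ± SD. miR-378a-3p lies between 3467 and 6234 CPM in IL4 lysates and between 1726 and 2276 CPM in control lysates, and miR-378b and miR-378d are at 0 in most exosome libraries.

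In exosomes, miR-378a-3p was the family member with enough reads to be tested. It measured 1679, 3684, 4941 and 4588 CPM in IL4 exosomes, against 1795, 1839, 1648 and 2078 CPM in control exosomes (replicates 1 to 4). The control values lay close together. In the IL4 group 3 libraries were above all controls, and replicate 1, of 25 January, was among the controls. The fitted change was 2.21-fold (log2 1.15, SE 0.30) and did not pass (edgeR adjusted p = 0.216, unadjusted 0.00407), though only 2 lines of 182 had a smaller p. In this comparison 1 line (0.549%), miR-146b-5p, was called and 12 had an unadjusted p under 0.05; DESeq2 called 6 (3.3%), miR-378a-3p among them (log2 1.21, adjusted p = 0.00797). Of the lines tested, 2.75% had IL4 exosomes wholly above control exosomes, and miR-378a-3p was not one of them.

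Besides the choice of tool, the call in exosomes depended on 1 library and on the filter. With no filter miR-378a-3p was called (log2 1.29; edgeR adjusted p = 0.0183; 1.58% of lines called). Without IL4 replicate 1 it was called (log2 1.42; edgeR adjusted p = 0.0253), with 2 lines (0.985%) called in all. With both libraries of 25 January left out it was not called, and the log2 fold change was 1.44 (adjusted p = 0.0583; 0.532% of lines called), and with the miR-203 lines taken out of every library it was 1.22 (adjusted p = 0.112). With those lines out of the totals, the 25 January libraries held 2082 CPM of miR-378a-3p with IL4 and 1978 CPM in control, so their ratio moved to 1.05. The part of the miR-203 reads in the low IL4 value was not tested beyond this.

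Set against the control library of the same date, IL4 exosomes held 0.935 times as much miR-378a-3p on 25 January (95% counting interval 0.653 to 1.35) and 2.003 times on 16 March. They held 3.00 times as much on 5 April and 2.21 times on 29 December. The titles place the December date in the year before all other dates, so it was the earliest. The IL4 library was thus higher on 3 of 4 dates. In lysates the ratio was 1.52 on 23 January, 3.14 on 14 March and 3.14 on 21 March. Both compartments therefore had their lowest ratio in the January libraries, although the dates of the compartments are not the same days.

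**Figure D2:**
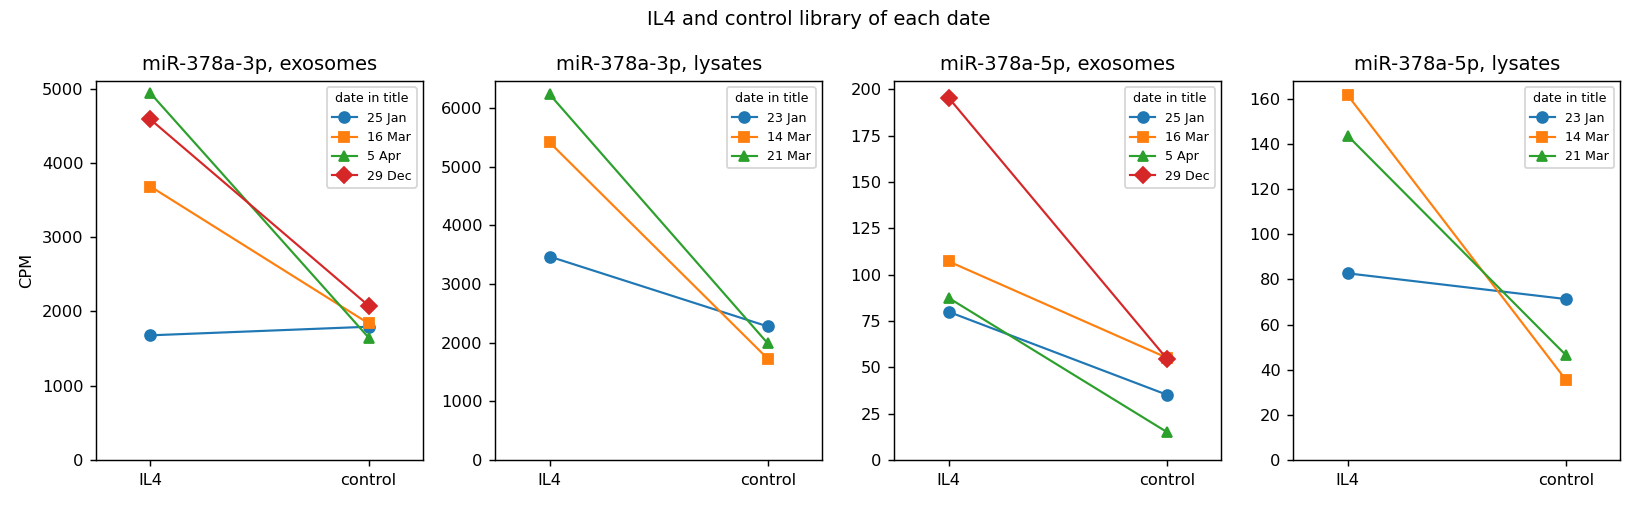
CPM (vertical axes, starting at 0) of miR-378a-3p and miR-378a-5p in the IL4 library (left) and the control library (right) of each date, for exosomes and lysates; a line joins the libraries of 1 date. miR-378a-3p is lower on the control side on 3 of 4 exosome dates and on all 3 lysate dates, and the exosome line of 25 January is nearly flat, with a ratio of 0.935.

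The remaining members were at the limit of detection in exosomes, and the filter on low counts left all 4 untested there. miR-378a-5p had 4, 8, 36 and 15 counts in IL4 exosomes, against 1, 3, 3 and 2 counts in control exosomes. In CPM these were 79.9, 107, 87.4 and 195 with IL4, against 35.2, 55.2, 15.1 and 54.7 in controls. The IL4 values all exceeded the control values, and IL4 was higher on 4 of 4 dates, by ratios of 1.94 to 5.80. Fitted with no filter, the log2 fold change of miR-378a-5p was 1.92 (SE 0.97, edgeR adjusted p = 0.528), in a fit that called 12 of 758 lines (1.58%). In the fit of all 14 libraries it was 2.05 (SE 0.62, edgeR adjusted p = 0.198), where 0.296% of lines were called.

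miR-378c had 4, 7, 46 and 27 counts in IL4 exosomes, against 2, 5, 24 and 7 counts in control exosomes, or 79.9, 93.8, 112 and 352 CPM with IL4 and 70.4, 91.9, 121 and 191 CPM in controls. The groups overlapped, and the within-date ratios of 1.14, 1.02, 0.927 and 1.84 were below those of miR-378a-3p on the last 3 dates of that list. Without a filter its log2 fold change was 0.66 (SE 0.72; edgeR adjusted p = 0.643). miR-378b was seen in 2 IL4 exosome libraries with 1 count each, in replicates 2 and 4, and in 1 control exosome library with 2 counts, replicate 3. miR-378d was seen with 4 counts in 1 IL4 exosome library, replicate 3 (9.72 CPM), and at 0 in all control exosomes.

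These zeros carry little information. A count of 0 allows up to 3 counts, or 7.29 to 105.6 CPM depending on the library, which is above all lysate levels of miR-378d and, in every such library but IL4 replicate 3, above all those of miR-378b. At the mean lysate CPM of the same treatment, the IL4 exosome libraries together would have given 6.95 counts of miR-378b, and 2 were observed; the control libraries would have given 2.49, and 2 were observed. For miR-378d the corresponding sums were 2.26 with 4 observed in IL4 exosomes and 0.668 with 0 observed in control exosomes. For miR-378c they were 105.2 with 84 observed in IL4 exosomes and 39.3 with 38 observed in control exosomes, and for miR-378a-5p 79.3 with 63 observed and 16.3 with 9 observed. Intervals and floors cover counting error only, since PCR reads are not independent molecules.

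Exosomes were then set against lysates of the same treatment, to ask whether the family is enriched or depleted in vesicles relative to the cells. On the CPM scale, miR-378a-3p averaged 3723 ± 1462 CPM in IL4 exosomes (SD, n = 4) and 5038 ± 1421 CPM in IL4 lysates (n = 3). In controls it averaged 1840 ± 178 CPM in exosomes (n = 4) and 1996 ± 275 CPM in lysates (n = 3). The libraries of the compartments overlapped under both treatments. On the TMM scale it was lower in exosomes with IL4 (log2 -1.22, SE 0.33; edgeR adjusted p = 0.00744) and in controls (log2 -0.89, SE 0.34; adjusted p = 0.0375). Among 338 lines tested, 49.4% were called with IL4 (30.2% higher and 19.2% lower) and 50.9% in controls (21.6% lower), so a call was common in these comparisons.

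These compartment values depended on the scaling. With library totals in place of TMM, the log2 values of miR-378a-3p were -0.43 with IL4 (adjusted p = 0.308) and -0.12 in controls (adjusted p = 0.830). That choice moved the median of all lines by 0.70 with IL4 and 0.81 in controls, and the calls to 128 higher and 12 lower with IL4, against 30.2% and 19.2% under TMM, and to 126 higher and 16 lower in controls, against 29.3% and 21.6%, all of 338 lines. Taken relative to the median line, miR-378a-3p was at -1.21 under TMM, -1.19 with RLE size factors and -1.12 with library totals in IL4 samples, and at -0.71, -0.71 and -0.75 in control samples. In controls the call also ended with DESeq2 (log2 -0.50, adjusted p = 0.203) and with RLE factors (-0.49, adjusted p = 0.203), and the value was -1.38 with no filter; with IL4 it ended without lysate replicate 2 (adjusted p = 0.0574) or 3 (0.0917).

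The less abundant members had fitted values in the same direction that did not pass. miR-378a-5p had a log2 value of -0.91 with IL4 (SE 0.48; edgeR adjusted p = 0.126) and -1.38 in controls (SE 0.62; adjusted p = 0.0740). miR-378c had -0.80 with IL4 (SE 0.47; adjusted p = 0.178), or -1.32 (adjusted p = 0.0110) without IL4 exosome replicate 4, its highest library, and -0.84 in controls (SE 0.51; adjusted p = 0.174). With library totals these values moved towards 0, to -0.15 with IL4 and -0.60 in controls for miR-378a-5p, and to -0.11 with IL4 and -0.05 in controls for miR-378c. miR-378b and miR-378d did not reach the filter. Fitted with no filter, miR-378b had -2.40 with IL4 (SE 1.18; edgeR adjusted p = 0.156) and -1.68 in controls (SE 1.201; adjusted p = 0.415), and miR-378d -0.47 with IL4 (SE 1.10; adjusted p = 0.982). In controls miR-378d was at 0 in every exosome library, and the adjusted p was 0.302.

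Whether IL4 acted differently in the compartments was tested as an interaction. The IL4 effect in exosomes minus that in lysates was -0.33 (SE 0.48) for miR-378a-3p, 0.47 (SE 0.79) for miR-378a-5p and 0.04 (SE 0.70) for miR-378c on the log2 scale, each with an edgeR adjusted p of 1.0. The test called 0 of 338 lines (0.0%) with edgeR and 0 with DESeq2, and 14 had an unadjusted p under 0.05. No difference between the compartments was detectable, and SEs of 0.48 to 0.79 leave room for sizeable ones in either direction.

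**Figure D3:**
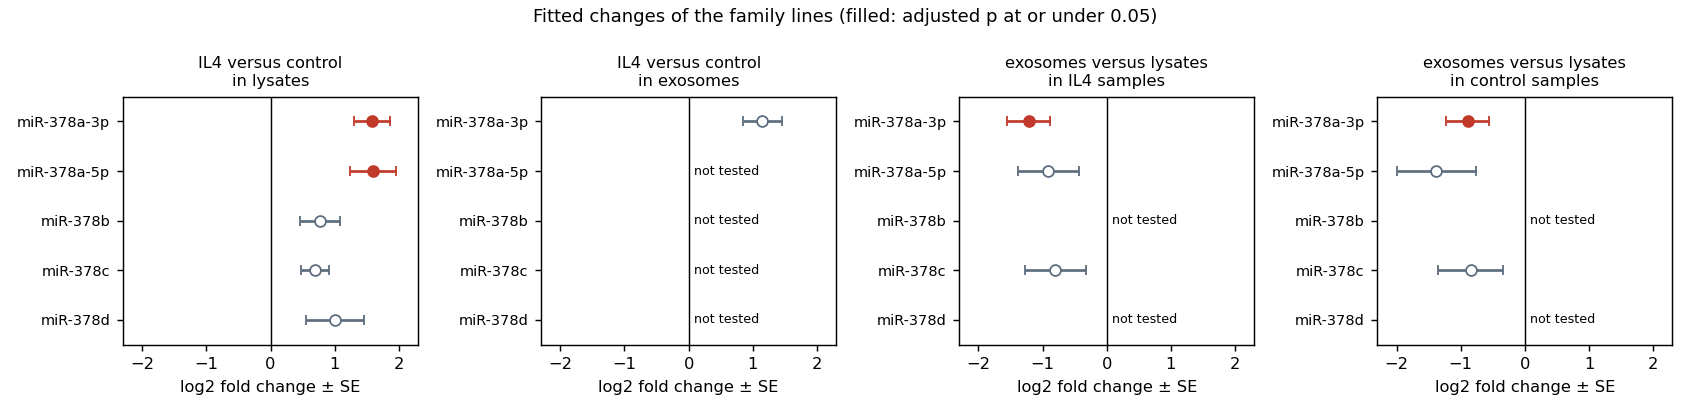
Fitted log2 fold changes (points) with their SE (bars) of the 5 family lines for IL4 against control in lysates and in exosomes, and for exosomes against lysates in IL4 and in control samples; filled points have an adjusted p at or under 0.05, and lines left untested are marked so. Both miR-378a arms are filled in lysates at 1.58 and 1.60, and miR-378a-3p is filled and below 0 in both exosome comparisons with lysates.

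Because lines alike in sequence may share reads, miR-378b, miR-378c and miR-378d were each also set against the abundant line, miR-378a-3p. The sequence of miR-378a-3p itself was not compared with theirs. In lysates, miR-378c had 5.21, 2.89 and 2.84 counts per 100 counts of miR-378a-3p with IL4, against 6.21, 5.33 and 6.87 in controls. The IL4 value was the lower one on each of the 3 dates. The groups did not overlap, although the closest values, from different dates, were 5.21 (95% exact binomial interval 4.90 to 5.55) and 5.33 (4.91 to 5.78). Pooled over libraries the ratio was 3.51 (3.37 to 3.65) with IL4 and 6.12 (5.86 to 6.39) in control lysates. In exosomes it was 4.76, 2.55, 2.26 and 7.67 with IL4, against 3.92, 5.0, 7.32 and 9.21 in controls, which overlap. The library means were 4.31 (SD 2.50, n = 4) with IL4 and 6.36 (SD 2.37, n = 4) in controls. Pooled values were 3.06 (2.43 to 3.80) and 6.85 (4.79 to 9.52). Replicate 3 alone supplied 2034 of the 2745 pooled miR-378a-3p counts with IL4 and 328 of 555 in controls. The pooled intervals of both compartments leave out the spread between libraries. How far the lines exchange reads was not tested, and values of miR-378b, miR-378c and miR-378d are uncertain to that extent.

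miR-378b had 0.360, 0.164 and 0.203 counts per 100 of miR-378a-3p in IL4 lysates, against 0.458, 0.333 and 0.365 in control lysates. The ranges overlap, but IL4 was lower on each of the 3 dates. miR-378d had 0.113, 0.0562 and 0.0656, against 0.0917, 0.128 and 0.1004, which overlap, with IL4 lower on 2 of 3 dates. With miR-378a-3p, miR-378b, miR-378c and miR-378d summed to 1 line, the lysate change was 1.54 on the log2 scale (edgeR adjusted p = 0.0198), close to the 1.58 of miR-378a-3p alone. No pair of family lines had equal counts in all libraries. Outside the family, miR-486a-3p and miR-486b-3p had the same fitted log2 change in exosomes (0.37), as did miR-374b-5p and miR-374c-5p (-0.07). How reads matching both lines of such a pair were counted was not tested.

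The balance of the miR-378a arms did not separate the groups. The 5p arm made up 4.55%, 2.83%, 1.74% and 4.09% of miR-378a counts in IL4 exosomes, against 1.92%, 2.91%, 0.906% and 2.56% in control exosomes. It made up 2.33%, 2.90% and 2.25% in IL4 lysates, against 3.04%, 2.01% and 2.28% in control lysates. Pooled, the share was 2.24% (1.73 to 2.86) in IL4 exosomes, 1.60% (0.732 to 3.01) in control exosomes, 2.46% (2.35 to 2.57) in IL4 lysates and 2.47% (2.32 to 2.64) in control lysates. The pooled lysate shares were thus alike while both arms rose, but pooling hid differences between libraries beyond counting error. In IL4 lysates the intervals were 2.68 to 3.13% in replicate 2 and 2.09 to 2.42% in replicate 3. Within dates the IL4 share was lower on 23 January (2.33% against 3.04%), higher on 14 March (2.90% against 2.01%) and nearly equal on 21 March (2.25% against 2.28%).

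**Figure D4:**
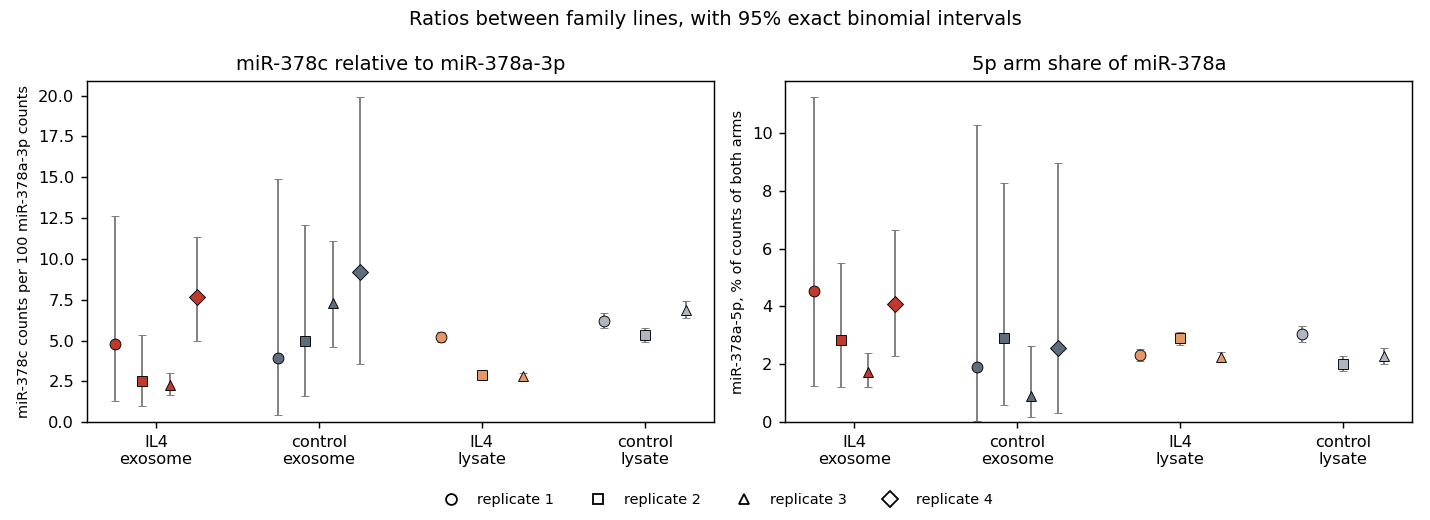
Left, counts of miR-378c per 100 counts of miR-378a-3p, and right, the percentage of miR-378a counts on the 5p arm, in each library (points, shaped by replicate) with 95% exact binomial intervals (bars). The miR-378c ratio lies between 2.84 and 5.21 in IL4 lysates and between 5.33 and 6.87 in control lysates, whereas the arm shares of all groups overlap.

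Across the 14 libraries, with each compartment's mean taken off, the lines whose log2 level ran most like that of miR-378a-3p among 337 others were miR-146b-5p (Pearson r = 0.93), miR-99a-5p (0.86), miR-378a-5p (0.86), miR-181b-5p (0.83), miR-532-5p (0.79) and miR-342-3p (0.77). The measure spans both treatments, so lines that differ between IL4 and control rank high in it. miR-146b-5p, an inhibitor of inflammatory signalling, had an r of 0.95 over the 6 lysates and 0.92 over the 8 exosomes. The 5p arm followed the 3p arm with an r of 0.97 in lysates and 0.82 in exosomes, where its counts were few. miR-378c ranked 16th (r = 0.61), with 0.92 in lysates and 0.54 in exosomes. Of the nearest lines outside the family, miR-146b-5p averaged 3136 CPM in IL4 exosomes and 1096 CPM in control exosomes, and 5406 CPM in IL4 lysates and 925 CPM in control lysates, a wider change in lysates (log2 2.76, SE 0.32; edgeR adjusted p = 0.00754) than the 1.58 of miR-378a-3p. miR-532-5p and miR-181b-5p also rose in lysates, by log2 0.89 (SE 0.14; edgeR adjusted p = 0.0111) and 0.92 (SE 0.19; adjusted p = 0.0270), whereas miR-342-3p did not pass (log2 1.06, SE 0.48; adjusted p = 0.377). The calls of miR-532-5p and miR-181b-5p each held in 2 of 6 fits with 1 lysate library left out. In exosomes neither passed (log2 0.48 and 0.61, edgeR adjusted p = 0.804 for each).

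The family was set beside 14 other microRNAs reported under IL4 or in alternatively activated macrophages. This list, like the family members, was chosen with earlier results of these data known. Its counts therefore describe the listed lines and are no independent test. In lysates 12 were tested, and 6 of them were called, where 7.22% of all lines were. Of these, 4 rose, namely miR-146b-5p (log2 2.76), miR-511-3p (1.42), which is encoded in a macrophage mannose receptor gene, miR-125b-5p (1.30) and miR-99a-5p (1.03). miR-146a-5p (-2.26) and miR-223-3p (-1.24), both restrainers of inflammatory responses in myeloid cells, fell. With 1 lysate library left out, the call of miR-223-3p held in 6 of 6 fits. Those of miR-146b-5p and miR-511-3p held in 5 each, that of miR-146a-5p in 3, and those of miR-125b-5p and miR-99a-5p in 2 each. The median of the 12 was 0.48, against 0.00 over all lines tested, and both miR-378a arms were above every member of this list but miR-146b-5p. In exosomes 11 were tested and 1, miR-146b-5p, rose, the only call by edgeR in that comparison (0.549%), with a median of 0.39 against -0.09 over all lines; DESeq2 called 3 of the 11.

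Of 14 other microRNAs tied to lipid and energy metabolism, such as the miR-33 arms and miR-103-3p, 12 were tested in lysates and 0 were called by edgeR or DESeq2, with 0 at an unadjusted p under 0.05 and a median log2 fold change of -0.04. In exosomes 10 were tested and 0 were called by either tool, with 1 at an unadjusted p under 0.05 and a median of -0.10. This list too was chosen with earlier results known, and that none passed does not show that they did not change.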

How the data were processed

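Values were raw counts per mature miRNA, deposited by the authors as 1 table with no normalization. Per the labels, exosomes were purified on an OptiPrep gradient and NextFlex was the library kit. The submitters' processing notes name cutadapt, without a version, and mm10. Not given in the sources used here are the aligner, the handling of reads that match several lines, and strand. Columns were matched to samples by title, and 0 were left unused.

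Tests were run on all lines with edgeR 4.0.16 (limma 3.58.1, R 4.3.3): filterByExpr, TMM, glmQLFit and glmQLFTest, two-sided, Benjamini-Hochberg adjustment, threshold 0.05. IL4 was compared with control within each compartment, and compartments and the interaction in 1 fit of 14 libraries. CPM are counts over the library total, whereas fold changes are on the TMM scale. SE is the log2 fold change over the square root of F, so it restates the test. The fits had a biological coefficient of variation of 0.493 (exosomes), 0.350 (lysates) and 0.480 (14 libraries together). The tests were also run on simulated counts. Their spread was set alike for all comparisons and lower than in these fits, so the run does not give error rates for these data. Intervals are 95% Clopper-Pearson (scipy 1.17.1), and floors are 3 counts.

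Replicate numbers follow the month and day in the titles, without regard to the year. Deviations from group means correlated within each date in exosomes (r 0.46, 0.19, 0.72 and 0.27) and lysates (0.61, 0.26 and 0.28). The control library of the same date was the closest to the IL4 library except for replicate 2 in exosomes and replicate 2 in lysates. The pairing by date was thus uneven. Of 18 pairs of libraries within a group, none were alike beyond counting noise, the lowest chi-square being 21.0 per degree of freedom.

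The members, the lists and the tests were chosen with earlier results of these data known. Named miRNAs were the members, the 5 lines most like miR-378a-3p, and list members called in lysates. Likeness used log2 TMM-scaled CPM with a prior count of 2. Alternatives were DESeq2 1.42.0, RLE factors, library totals, no filter, summed lines, the date block, a fit of all libraries and leaving out each library. Chosen after seeing the data were leaving out both 25 January exosome libraries and taking out the miR-203 lines.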

Additional observations from a re-analysis of the deposited data

Results flagged for a closer look

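For 18 combinations of a level, share or ratio with an exosome group of 4 libraries, 5 had 1 library far from the other 3; chance alone sets a library apart in about 1 group in 20. That rate does not hold for 4 of the 5, where a line had a few counts in 1 library and 0 in the other 3; level and ratio repeat the same counts there. miR-378c measured 352 CPM in IL4 exosome replicate 4 (27 counts), against 79.9 to 112 CPM in the other 3 IL4 exosome libraries; the control library of its date was also the highest of its group, at 191 CPM. miR-378b measured 10.05 CPM in control exosome replicate 3 (2 counts, 0.610 per 100 counts of miR-378a-3p), with 0 in the other 3 control exosome libraries. miR-378d measured 9.72 CPM in IL4 exosome replicate 3 (4 counts, 0.197 per 100 counts of miR-378a-3p), with 0 in the other 3 IL4 exosome libraries. Replicate 3 was the deepest library of both exosome groups, with totals of 411671 counts with IL4 and 199025 in control.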

How the results depend on the processing

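In exosomes the log2 change of miR-378a-3p was 1.21 with DESeq2 and 1.29 with no filter, both called, and 1.08 to 1.42 with 1 library left out. The lines called there numbered 6 with DESeq2, 0 with library totals, 12 with no filter and 0 to 2 with 1 library left out. The date block gave 1.10 (edgeR adjusted p = 0.0821). In lysates miR-378a-3p was 1.54 in the fit of all libraries (adjusted p = 0.0550), 1.504 with the block and 1.26 to 1.85 with 1 library left out. miR-378a-5p was 1.34 with library totals (adjusted p = 0.105), 1.58 in the fit of all libraries (0.175) and 1.39 to 1.89 with 1 library left out. The lines called numbered 14 with library totals, 50 with the block, 4 in the fit of all libraries and 2 to 34 with 1 library left out. In exosomes against lysates, miR-378a-3p with IL4 was -0.43 with library totals and -1.31 to -0.80 with 1 library left out, and in controls -0.50 with DESeq2, -0.49 with RLE, -0.12 with library totals and -1.01 to -0.57 with 1 library left out. The interaction of miR-378c turned to -0.075 with DESeq2, -0.075 with RLE, -0.064 with library totals and -0.19 with the block. With 1 library left out, interactions ran from -0.52 to 0.082 for miR-378a-3p, -0.24 to 0.85 for miR-378a-5p and -0.51 to 0.36 for miR-378c; with no filter 3 lines were called. With miR-21a-5p out of the totals, the family share was 0.539% in IL4 exosomes, 0.254% in control exosomes, 0.889% in IL4 lysates and 0.305% in control lysates. The causes were not tested. At these depths exosome values of the less abundant members rest on few counts.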
